A study of Mus musculus with 6 samples.

Results

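Classical cadherins are calcium-dependent adhesion proteins of the cell surface. Their extracellular repeats bind cadherins on the neighbouring cell, and the cytoplasmic tail of most of them binds beta-catenin and p120-catenin, which link the contact to alpha-catenin and actin. In the developing brain they sort neurons, guide migrating cells along glia and hold synaptic contacts together, and in cerebellar granule cells (GCs) N-cadherin and M-cadherin are known from migration and from contacts in the synaptic glomeruli. The mRNAs of 10 members were followed after knockdown (KD) of YTHDF2, a protein that binds N6-methyladenosine (m6A) in mRNA and directs the bound mRNA to decay. The members are 3 type I cadherins (Cdh2, Cdh4 and Cdh15), 6 type II cadherins (Cdh6, Cdh7, Cdh8, Cdh9, Cdh10 and Cdh11) and the lipid-anchored Cdh13. They were chosen by name, with earlier results of these data known. Each was found in 1 row of the deposited table of 53421 genes by its Ensembl identifier.

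The libraries came from GCs of C57BL/6 mouse cerebellum, labelled postnatal day 8, which were dissociated, cultured in Neurobasal A with B27 and infected with lentivirus. In 3 libraries the virus carried a hairpin against Ythdf2 (shYthdf2) and in 3 a control hairpin (shCtrl), and both groups were selected with puromycin. The libraries carry the numbers 1, 2 and 4 in each group. The paper's methods call them biological replicates, and the litters or cultures behind each number are not given in the sources used here. The titles and genotype tags of the samples name the groups the other way round from the names of the libraries. The names were followed here, and if the titles and tags were right every direction below would be inverted. A single hairpin stands for the KD, and whole cultures were lysed.

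Each library held 17246821 to 21546595 counts. Replicate 2 stood apart from replicates 1 and 4 in each group, with 44.1% of the variance of log2 counts on the first principal component, where the shCtrl library of replicate 2 lay on the side of the shYthdf2 libraries. Libraries 1 and 4 of a group were close to each other, with a chi-square per degree of freedom between their counts of 3.35 in shYthdf2 and 4.66 in shCtrl. All other pairs of libraries had 22.2 to 70.2. Whether libraries 1 and 4 come from separate cultures was not tested. The SDs (n = 3) and the tests with group as the only term count them as independent. Ythdf2 itself had 499.6, 401 and 499.7 normalized counts after KD (libraries 1, 2 and 4) against 617, 839 and 627 in controls, or 67.3% of the shCtrl mean, a log2 fold change of -0.57 ± 0.16 (SE, with adjusted p = 0.125 by edgeR's quasi-likelihood test). Ythdf2 was thus lower in each of the libraries named as KD than in each named as control, which is the direction of the names and not of the titles and tags. Groups were not assigned from it. Normalized counts are counts scaled by TMM factors to a common library size. Of the 10 markers of mature GCs, all were tested, and Zic1 was the most abundant of them.

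The kind of a cadherin can be read at the start of its mature protein, where the propeptide is cut off after a furin site and the first strand of the adhesive domain begins. Type I cadherins dock a single tryptophan into the partner, type II cadherins dock a pair of them, and T-cadherin has none there. The 30 coding bases after the furin site are shown for 6 members, with the tryptophan codons in capitals.
Cdh4: gacTGGgtcatcccacccatcaacgttccc
Cdh15: gccTGGgtcatcccacccattagtgtgtct
Cdh9: ggcTGGatgTGGaatcagttcttcctctta
Cdh6: agtTGGatgTGGaatcagttcttcctcctg
Cdh11: ggcTGGgtcTGGaaccaattctttgtgata
Cdh13: tccattgtggtgtcccccatcttgatccca
These bases were read from GENCODE M21 transcripts (GRCm38), each from the transcript with the longest coding sequence. They lie within 1 exon each, at chr2:179797560-179797589 on the plus strand for Cdh4, chr8:122856592-122856621 on the plus strand for Cdh15, chr15:16778257-16778286 on the plus strand for Cdh9, chr15:13091689-13091718 on the minus strand for Cdh6, chr8:102679651-102679680 on the minus strand for Cdh11 and chr8:118757416-118757445 on the plus strand for Cdh13. Cdh9 and Cdh6 have tryptophan codons at positions 2 and 4 of the mature protein, as do Cdh7, Cdh8, Cdh10 and Cdh11, whereas Cdh2, Cdh4 and Cdh15 have a tryptophan codon at position 2 alone. Cdh13 has 0 in this window.

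Most of the 10 cadherins had higher mRNA levels in the shYthdf2 libraries, and none of them passed the adjusted threshold. Of the 10 members, 10 passed the filter on low counts. Of these, 9 had a log2 fold change above 0, beside 50.8% of all genes tested, and Cdh4 was the exception. In edgeR's test 0 of the 10 members had an adjusted p below 0.05, against 0.604% of the 17214 genes tested. DESeq2 gave 3 members (Cdh4, Cdh6 and Cdh9) against 7.67% of genes, limma-voom gave 0 against 0.139%, and edgeR with the replicate number as a block gave 2 (Cdh4 and Cdh9) against 1.35%. Without a filter on low counts it gave 2 (Cdh4 and Cdh9) against 1.98%. With RLE factors, library size alone or at least 10 counts in every library it gave 0, against 0.61%, 0.627% and 0.862% of genes. At an unadjusted p under 0.05 there were 6 members, 5 of them higher and 1 lower, where 20.1% of all genes tested were called, 9.5% higher and 10.6% lower. For these 6 members, as for 26.0% of all genes tested, no shYthdf2 library lay within the shCtrl range or the reverse. Without overlap and higher in shYthdf2 were 5 members and 12.6% of all genes tested. The median log2 fold change of the members was 0.37, beside 0.0082 over all genes tested, and it was 0.33 without Cdh9, which passed the filter through its shYthdf2 libraries alone. It was 0.24 without the shCtrl library of replicate 1 and 0.57 without that of replicate 2. The 6 type II cadherins were all above 0, with a median of 0.53, or 0.41 without Cdh9, and the 3 type I cadherins went both ways. The kinds were not tested against each other.

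**Figure D1:**
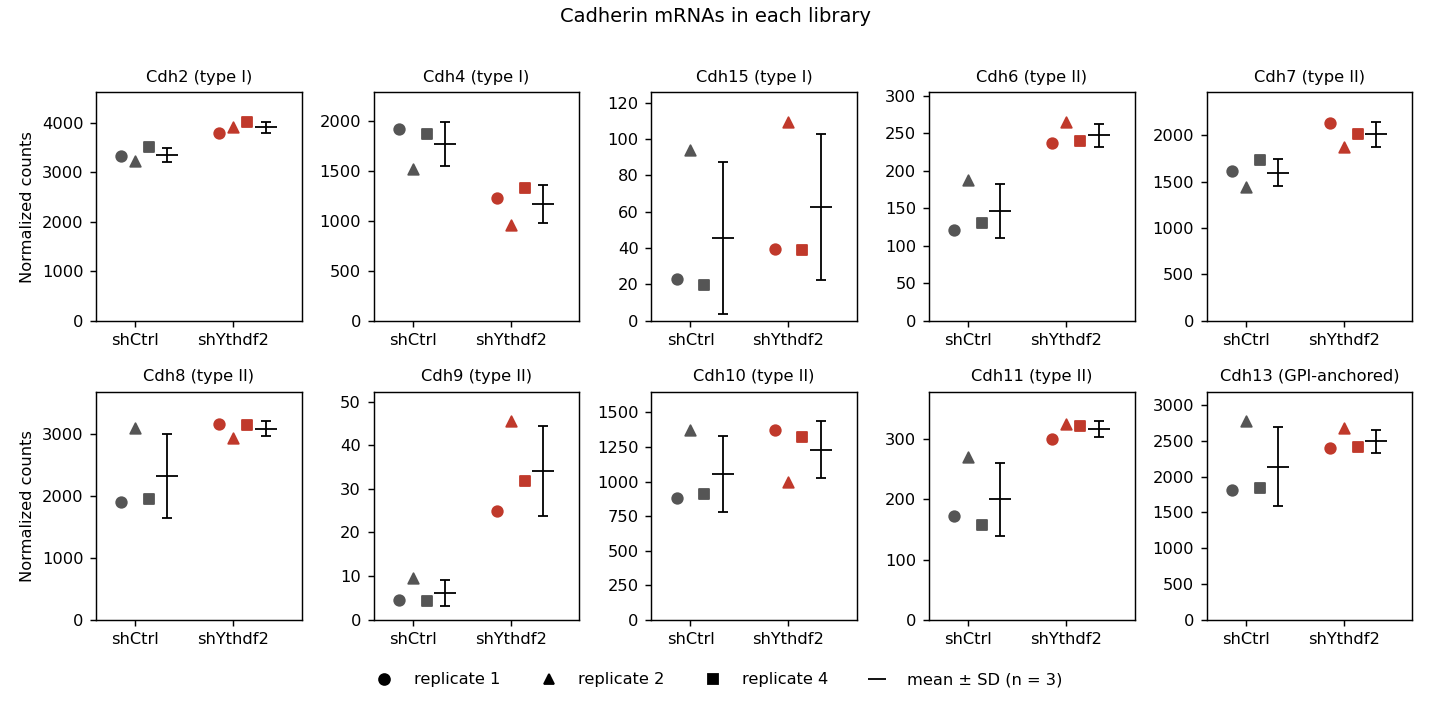
Normalized counts (linear axes from 0) of the 10 cadherins in each library, with 1 symbol per replicate number and the mean ± SD (n = 3) beside each group. Cdh9, Cdh6, Cdh11, Cdh7 and Cdh2 lay higher in every shYthdf2 library than in every shCtrl library and Cdh4 lay lower, while Cdh8, Cdh10, Cdh13 and Cdh15 overlapped.

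Per length, Cdh2 was the most abundant of the 10 mRNAs and Cdh9 the least in both groups. Levels are given as RPKM, counts per kilobase of exon scaled to library size, with the exons of all transcripts of a gene merged. Among controls the level of Cdh2 was 22.0 ± 0.915 (SD, n = 3), followed by Cdh8 at 15.8 ± 4.63, Cdh4 at 12.9 ± 1.58, Cdh13 at 10.1 ± 2.57, Cdh7 at 8.42 ± 0.758 and Cdh10 at 5.55 ± 1.44. A lower tier held Cdh11 at 1.19 ± 0.361, Cdh6 at 0.859 ± 0.213, Cdh15 at 0.740 ± 0.680 and Cdh9 at 0.0920 ± 0.0453. The lowest Cdh10 library, at 4.63, was above the highest Cdh11 library, at 1.60, so that the tiers did not overlap. Within the order, the shCtrl libraries of Cdh8 and Cdh4, of Cdh4 and Cdh13, of Cdh13 and Cdh7, of Cdh11 and Cdh6, and of Cdh6 and Cdh15 overlapped. Cdh2 and Cdh8 were separated narrowly, at no less than 21.2 and no more than 21.1. In the shYthdf2 libraries Cdh4 came after Cdh13 and Cdh7, with a level of 8.51 ± 1.39, and the other members kept their order. The place of Cdh4 depends on the length used. With the longest transcript in place of the merged exons it was sixth in both groups.

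**Figure D2:**
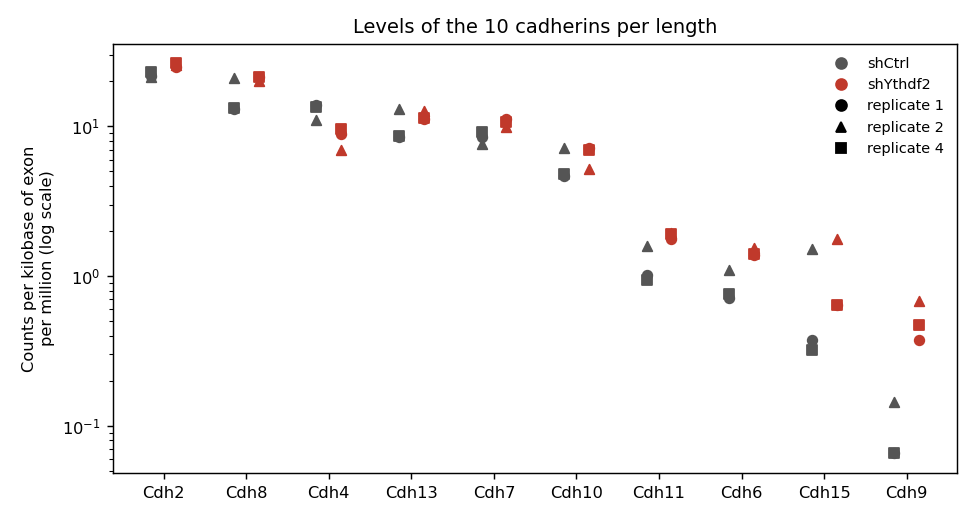
Levels of the 10 cadherins in RPKM (log axis), ordered by the shCtrl mean, with grey symbols for shCtrl and red symbols for shYthdf2 libraries and 1 shape per replicate number. The 6 members at the left had shCtrl means from 5.55 to 22.0 and the 4 at the right from 0.0920 to 1.19.

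Among the type I cadherins, Cdh4 was lower and Cdh2 slightly higher after YTHDF2 KD, and Cdh15 followed the replicate number more than the group. Cdh2 (ENSMUSG00000024304, chromosome 18 from 16588877 to 16809246) encodes N-cadherin, the main classical cadherin of neurons. Libraries 1, 2 and 4 held 3806, 3913 and 4015 normalized counts after KD and 3323, 3241 and 3513 in controls. The lowest KD library was above the highest control, with means of 3911 ± 105 and 3359 ± 139.6 (SD, n = 3). The log2 fold change was 0.22 ± 0.09 (SE, with adjusted p = 0.217 by edgeR), and with each library left out in turn it stayed between 0.19 and 0.25.

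Cdh4 (ENSMUSG00000000305, chromosome 2 from 179442431 to 179899373) encodes R-cadherin, the closest relative of N-cadherin, known from retina and brain. Its normalized counts were 1224, 956 and 1325 after KD and 1918, 1519 and 1863 in controls. The groups did not overlap, and replicate 2 was the lowest library in each of them. The means were 1169 ± 191 and 1767 ± 216 (SD, n = 3), or 66.2% of the shCtrl mean. The log2 fold change of -0.60 ± 0.15 (SE) came with adjusted p = 0.103 by edgeR. The replicate block brought it past the threshold (adjusted p = 0.0450), and over the 14 alternatives it ranged from 0.00553 to 0.366. The direction was the same in all of these, with log2 fold changes from -0.70 to -0.47.

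Cdh15 (ENSMUSG00000031962, chromosome 8 from 122847966 to 122867397) encodes M-cadherin, which is known from muscle precursors and from the cerebellar glomeruli. With 18 to 113 counts in a library, it was measured less precisely. Normalized, it stood at 39.6, 109 and 39.2 after KD and at 23.0, 93.7 and 19.7 in controls. The replicate 2 library held 2.77 times the mean of replicates 1 and 4 in shYthdf2 and 4.39 times in shCtrl, so that the groups overlapped widely. The log2 fold change of 0.46 ± 0.68 (SE, with adjusted p = 0.744 by edgeR) became -0.21 without the shYthdf2 library of replicate 2 and 1.55 without the shCtrl library of replicate 2.

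The type II cadherin with the largest difference was Cdh9, which was nearly absent from the shCtrl libraries. Cdh9 (ENSMUSG00000025370, chromosome 15 from 16728756 to 16857094) is known from mossy fibre synapses of the hippocampus and from retinal bipolar cells. The deposited counts were 24, 47 and 30 after KD (libraries 1, 2 and 4) and 5, 10 and 4 in controls. Normalized, these became 25.0, 45.4 and 31.8 against 4.42, 9.66 and 4.38. The groups were far apart, and the means of 34.1 ± 10.4 and 6.16 ± 3.04 (SD, n = 3) differed by a ratio of 5.54. edgeR gave a log2 fold change of 2.44 ± 0.44 (SE), an unadjusted p = 7.11e-04 and an adjusted p = 0.0572. Blocking on the replicate number brought Cdh9 past the threshold (adjusted p = 0.0450). Over the 13 alternatives in which Cdh9 could be tested it ranged from 0.00160 with DESeq2 to 0.286, and the log2 fold change from 2.18 to 2.92. Between libraries of the same replicate number, Cdh9 differed by 2.37, 2.18 and 2.72 on the log2 scale.

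Cdh6 and Cdh11 came next among the type II cadherins. Cdh6 (ENSMUSG00000039385, chromosome 15 from 13028701 to 13173675) encodes K-cadherin of kidney and of several brain nuclei. KD libraries held 238, 265 and 239 normalized counts and controls 121, 188 and 130.4. The shYthdf2 libraries lay close together, and the shCtrl library of replicate 2 lay between the groups. For Cdh6, edgeR fitted a log2 fold change of 0.75 ± 0.20 (SE, with adjusted p = 0.115 by edgeR). Over the 14 alternatives the adjusted p spanned 0.00835 to 0.391, and with DESeq2 it was 0.0224.

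Cdh11 (ENSMUSG00000031673, chromosome 8 from 102632095 to 102785642) encodes OB-cadherin, which is found in mesenchyme and fibroblasts as well as in neurons. Normalized counts of 300.4, 325 and 322 after KD stood against 173, 269.6 and 158 in controls. Here too the shCtrl library of replicate 2 was the closest to the shYthdf2 group. Cdh11 had a log2 fold change of 0.66 ± 0.22 (SE, with adjusted p = 0.159 by edgeR), and it was 0.93 without that library (adjusted p = 0.00688).

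Cdh7 (ENSMUSG00000026312, chromosome 1 from 109982431 to 110140157), a type II cadherin of subsets of neurons and of neural crest cells, had 2139, 1875 and 2018 normalized counts after KD against 1618, 1447 and 1733. It differed from Cdh6 and Cdh11 in that replicate 2 was the lowest library of each group. The means were 2011 ± 132 and 1599.7 ± 144 (SD, n = 3), a log2 fold change of 0.33 ± 0.11 (SE, with adjusted p = 0.151 by edgeR).

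Cdh8 and Cdh10 overlapped between the groups. Cdh8 (ENSMUSG00000036510, chromosome 8 from 99024471 to 99416471), the second most abundant member per length in both groups, had 3147, 2936 and 3145 normalized counts after KD against 1900.4, 3096 and 1944. Replicates 1 and 4 of shCtrl were thus well below the shYthdf2 libraries, and replicate 2 of shCtrl was level with them. Cdh8 had a log2 fold change of 0.41 ± 0.19 (SE, with adjusted p = 0.283 by edgeR), and without the shCtrl library of replicate 2 it was 0.68 (adjusted p = 0.00347). Cdh10 (ENSMUSG00000022321, chromosome 15 from 18818947 to 19014236), an adhesion molecule of forebrain and brain vessels, had 1372, 995 and 1323 against 880.3, 1371 and 913. In replicates 1 and 4 its shYthdf2 libraries were the higher, and in replicate 2 the shCtrl library was. Its log2 fold change was 0.22 ± 0.21 (SE, with adjusted p = 0.591 by edgeR), with 0.10 to 0.46 when libraries were left out in turn.

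Cdh13 (ENSMUSG00000031841, chromosome 8 from 118283733 to 119324921) encodes T-cadherin, which is held in the membrane by a lipid anchor, has no cytoplasmic tail and binds adiponectin. T-cadherin mRNA stood at 2396, 2673 and 2407 normalized counts after KD and at 1815, 2771 and 1834 in controls. The single highest of these values was in shCtrl, in replicate 2. The log2 fold change of 0.22 ± 0.17 (SE, with adjusted p = 0.529 by edgeR) was 0.45 without that library (adjusted p = 0.0166).

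**Figure D3:**
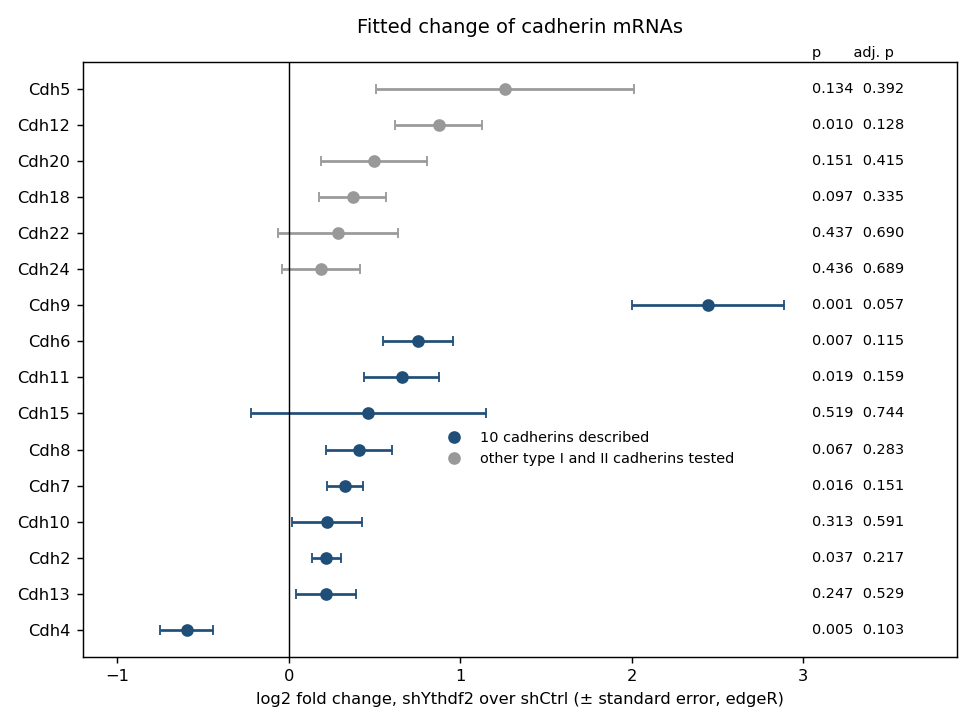
Log2 fold changes (shYthdf2 over shCtrl) ± standard error from edgeR for the 10 cadherins described (blue) and for 6 other type I and type II cadherins that could be tested (grey), with unadjusted and adjusted p-values at the right. Only Cdh4 lay below 0, at -0.60, and Cdh9 lay farthest above it, at 2.44.

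Which members passed the threshold depended on the shCtrl library of replicate 2 and on a term for replicate 2, as well as on the test and filter given above. In the shCtrl group, replicate 2 was the highest library for 7 of the 10 members (Cdh6, Cdh8, Cdh9, Cdh10, Cdh11, Cdh13 and Cdh15) and the lowest for the other 3 (Cdh2, Cdh4 and Cdh7). Its ratio to the mean of replicates 1 and 4 was 1.61 for Cdh8, 1.63 for Cdh11, 1.53 for Cdh10, 1.52 for Cdh13 and 1.50 for Cdh6. In the shYthdf2 group the ratios were 0.933, 1.04, 0.738, 1.11 and 1.11 in the same order, and the SD of each of these 5 mRNAs was smaller there than in shCtrl. Without the shCtrl library of replicate 2, 6 of the 10 members passed the adjusted threshold (Cdh4, Cdh6, Cdh8, Cdh9, Cdh11 and Cdh13), against 18.3% of all genes tested (0 members and 4.7% of genes without the shYthdf2 library of replicate 2). A term for replicate 2 against replicates 1 and 4 also gave 6 members (Cdh2, Cdh4, Cdh6, Cdh7, Cdh9 and Cdh11), against 22.1%. When any of the other 5 libraries was left out, 0 members passed in edgeR's test. Of all genes tested, 4.7% passed without the shYthdf2 library of replicate 2 and 0.0% without each of the others. Within replicate numbers, the sign of the difference was the same in all 3 for 7 members, and for Cdh8, Cdh10 and Cdh13 it was opposite in replicate 2, at -0.08, -0.46 and -0.05 on the log2 scale. The share of all genes with the same sign in all 3 was not counted. Libraries of the same number are not shown to be pairs, and libraries 1 and 4 of a group were close to each other.

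**Figure D4:**
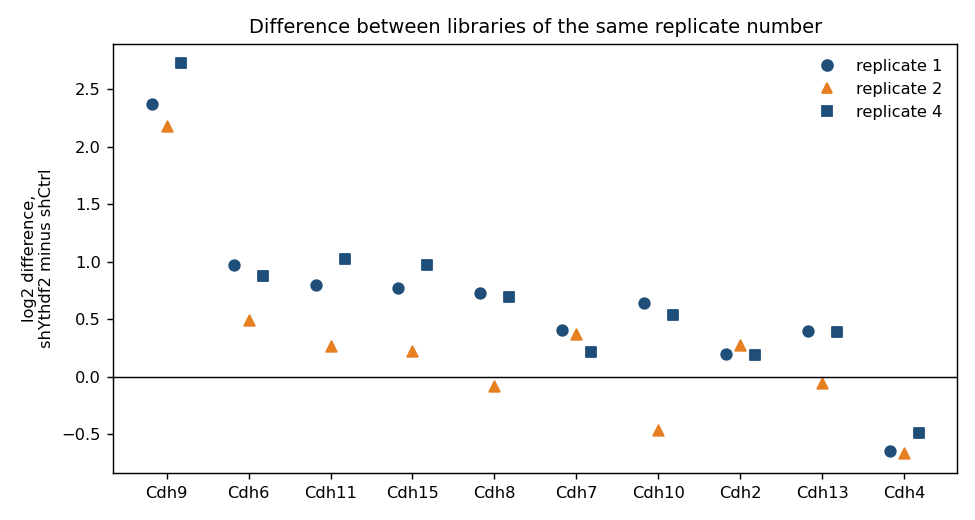
Difference between the shYthdf2 and the shCtrl library of the same replicate number on the log2 scale, for each cadherin, ordered by the fitted change. Replicates 1 and 4 (blue) lay close together for most members, and replicate 2 (orange) was below 0 for Cdh8, Cdh10 and Cdh13, while all 3 replicates were below 0 for Cdh4.

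With all 6 libraries, the tested markers of glia, microglia, vessels and fibroblasts all had log2 fold changes above 0, beside 50.8% of all genes tested. None passed the adjusted threshold in edgeR's test. Some signs rested on 1 library. Without the shYthdf2 library of replicate 2, Col1a1 stood at -0.49, Rgs5 at -0.40, Dcn at -0.34 and Col1a2 at -0.07. With libraries left out in turn, the lowest values were -0.16 for Olig1 and -0.06 for S100b, and the remaining tested markers stayed above 0. Of the 8 oligodendrocyte lineage markers, 8 were tested and had log2 fold changes above 0, and their summed normalized counts were 4773 to 16642 in the shCtrl and 12888 to 16902 in the shYthdf2 libraries. All 8 markers of astrocytes and Bergmann glia were above 0 as well, with sums of 5807 to 13429 and 11274 to 12586. The shCtrl library of replicate 2 held 3.40 times the mean of the other shCtrl libraries for the oligodendrocyte sum and 2.30 times for the astrocyte sum. For microglia, 5 of 6 markers were tested, all 5 above 0, with sums of 133 to 523 in shCtrl and 285 to 744 in shYthdf2. P2ry12 was too low to be tested, with 2, 1 and 1 counts after KD (libraries 1, 2 and 4) and 0, 4 and 0 in controls. The replicate 2 library held 3.78 times the mean of the others for the microglia sum in shCtrl and 0.391 times in shYthdf2, a ratio below that of any member. For vascular cells and fibroblasts, 8 of 9 were tested, all 8 above 0, with sums of 2310 to 5802 and 2927 to 7372, and the endothelial marker Cldn5 had 0 counts in 5 of the 6 libraries. The replicate 2 library held 2.51 times the mean of the others for this sum in shCtrl and 2.47 times in shYthdf2, beside 4.39 and 2.77 times for Cdh15. The part of these cells in the cadherin values was not tested. In RNA from whole cultures, fewer cells of a type and less RNA per cell cannot be told apart.

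In the shCtrl group the replicate 2 library was closer to the others for the neuronal marker sums, at 1.06 times their mean for Purkinje cells to 1.44 times for GC progenitors. These sums weigh abundant markers most, and some single neuronal markers set replicate 2 well apart. In shCtrl libraries 1, 2 and 4, Cbln3 had 289, 1806 and 275 normalized counts and Gabra6 had 431, 1206 and 407. Slc6a5 went the other way, at 795, 254 and 752, while Zic1 had 62040, 63173 and 60508. For mature GCs, 10 of 10 markers were tested, 6 above and 4 below 0, with sums of 136805 to 149977 in shCtrl and 133963 to 136768 in shYthdf2. For GC progenitors, 5 of 6 were tested and all 5 were above 0, with sums of 1418 to 2099 and 1882 to 2364. The GABAergic interneuron list had 4 of 5 above 0 and sums of 6307 to 6896 and 7546 to 9121. Purkinje cell markers had 1 of 4 tested above 0 and sums of 621 to 661 and 463 to 712, and unipolar brush cell markers had 1 of 3 above 0 and sums of 3791 to 5266 and 4162 to 5578. Over the 9 marker lists, 0 of 56 genes tested passed the adjusted threshold in edgeR's test, and 7 had an unadjusted p under 0.05, or 12.5% beside 20.1% of all genes tested. With the replicate block, 1 gene did (Gad1, adjusted p = 0.0450).

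The other type I and type II cadherins that were tested had log2 fold changes above 0, which for some of them rested on 1 library. Of 9 listed, 6 could be tested, and all 6 had log2 fold changes above 0 with a median of 0.43, beside 50.8% of all genes tested above 0. By edgeR 0 of them passed the adjusted threshold and 1, Cdh12, had an unadjusted p under 0.05. Over the 3 related lists (other cadherins, catenins, and maturation and cleavage) such a p was found for 4 of 24 genes tested, or 16.7%, also beside 20.1% of all genes. Cdh12 lies between Cdh10 and Cdh18 on chromosome 15, from 20449265 to 21589533, and its normalized counts were 53.3 ± 6.52 in the shYthdf2 and 29.0 ± 4.23 in the shCtrl libraries (SD, n = 3), without overlap. Its log2 fold change was 0.88 ± 0.25 (SE, with adjusted p = 0.128 by edgeR). The next by p-value were Cdh18 at 0.37 (adjusted p = 0.335) and the endothelial cadherin Cdh5 at 1.26 (adjusted p = 0.392), by the same test. Without the shYthdf2 library of replicate 2, Cdh5 stood at 0.07 and Cdh22 at -0.04. Cdh12, Cdh18, Cdh20 and Cdh24 then ranged from 0.28 to 0.81. Cdh1, Cdh3 and Cdh19 had too few counts to be tested. Cdh6, Cdh9, Cdh10, Cdh12 and Cdh18 follow each other in this order along chromosome 15, and all 5 were above 0, from 0.22 for Cdh10 to 2.44 for Cdh9.

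None of the catenins that bind the cadherin tail passed the adjusted threshold, and their log2 fold changes went both ways. Of 11 catenins and linkers to the cytoskeleton, 10 were tested, 4 above and 6 below 0, with a median log2 fold change of -0.05. Past the adjusted threshold there were 0 in edgeR's test, and 1 had an unadjusted p under 0.05. It was Jup, plakoglobin, a relative of beta-catenin, with 2883 ± 647 normalized counts in the shYthdf2 and 3801 ± 399 in the shCtrl libraries (SD, n = 3) and overlap between the groups. Jup had a log2 fold change of -0.40 ± 0.17 (SE, with adjusted p = 0.244 by edgeR), followed by Pkp4 at 0.31 (adjusted p = 0.260) and the p120 relative Arvcf at -0.60 (adjusted p = 0.362) in the same test. Ctnnb1, beta-catenin itself, stood at 3981 ± 536 against 4094 ± 405 (SD, n = 3), a log2 fold change of -0.04 ± 0.13 (SE).

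Cadherins are matured by furin-type proteases and are later cut by ADAM10 and then by gamma-secretase. Of 8 genes of these steps, 8 were tested, 4 above and 4 below 0 with a median of -0.0038, and 0 passed the adjusted threshold in edgeR's test. At an unadjusted p under 0.05 there were 2, both with log2 fold changes below 0. Aph1a, a subunit of gamma-secretase, was lower in every shYthdf2 library than in every shCtrl library, with 1089 ± 8.03 normalized counts in the shYthdf2 and 1521 ± 130.2 in the shCtrl libraries (SD, n = 3), a log2 fold change of -0.48 ± 0.10 (SE, with adjusted p = 0.0686 by edgeR). On the log2 scale the protease Pcsk5 differed by 0.46 (adjusted p = 0.267), followed by Furin at -0.20 (adjusted p = 0.322) and Adam10 at 0.21 (adjusted p = 0.382), by the same test.

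As a feature that the choice of members did not use, the letters GGACT, a frequent setting of m6A in mRNA, were counted on the transcript strand of each member's transcript with the longest coding sequence. They occurred in all 10, from 2 in the 3539 bases of Cdh9 to 8 in the 3251 bases of Cdh15. Cdh9 had 0.565 per kilobase and Cdh15 had 2.46, with a median of 1.08 over the members. Over 13719 tested genes with such a transcript, 92.2% held the letters and the median was 1.06 per kilobase. Cdh4, the member that was lower, had 0.939 per kilobase, and Cdh2 had 1.24. A match to these letters does not show that the site is methylated.

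Few counts could come from genes that overlap the members other than Cdh9, for which this is not known. Annotated genes overlap Cdh2, Cdh4, Cdh8, Cdh9, Cdh11, Cdh13 and Cdh15, and most share 0 exon bases with them. Those with a row in the table had at most 55 counts in a library, at Cdh8 (Gm45297), where Cdh8 had at least 1774. Gm49127 shares 224 exon bases with Cdh9 on the opposite strand and had no row in the table, so its counts are not known. Cdh9 itself had 4 to 47 counts in a library. Whether the counting kept the strand is not given in the sources used here, so reads of that antisense gene and of Cdh9 cannot be told apart in these bases.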

How the data were processed

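RNA-seq libraries of cultured GCs, 3 with shYthdf2 and 3 with shCtrl, were analysed. The authors deposited raw counts per gene, 1 column per library, which they made by filtering reads, aligning them with HISAT and TopHat2 (GRCm38) and counting with HTSeq, as the paper's methods state. The submitters' processing notes name Bowtie 0.12.2 and mm9 instead, and the library kit differs between the paper and the labels. Only gene identifiers were used, matched to GENCODE M21 (GRCm38, 52489 of 53421 genes). The 785 rows outside that annotation (without an Ensembl identifier, 0.303% of counts) stayed in the fit.

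Groups were taken from the library names in the sample descriptions. edgeR 4.0.16 in R 4.3.3 was applied to all 6 libraries with TMM factors, filterByExpr by group (minimum count 10, minimum total 15, 17214 genes kept, 99.8% of counts), the quasi-likelihood test with group as the only term and Benjamini-Hochberg adjustment over all genes tested. Normalized counts refer to a library of 18917881. Depth was 17246821 to 21546595 counts per library, so that low genes such as Cdh9 and Cdh15 are the least precise, and SDs cover counting error as well as differences between libraries. Two-sided exact permutation tests of single values cannot go below p = 0.1 with 3 libraries against 3, and gave p = 0.1 for each of the 6 members without overlap.

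Same-numbered libraries deviated together from their group means (correlations 0.252, 0.360 and 0.321 for replicates 1, 2 and 4 over 17214 genes). With libraries 1 and 4 of a group close to each other, their deviations largely mirror that of replicate 2. The correlations therefore cannot show that library 1 pairs with 1 and 4 with 4. A replicate block was an alternative. Others were RLE factors, library size alone, DESeq2 1.42.0, limma-voom (limma 3.58.1), other count filters, a term for replicate 2 and each library left out. On simulated data with 196 changed genes among 16862, edgeR found 39.6% of changes of 1 and 84.8% of changes of 2 on the log2 scale, and 6.72% of its calls were unchanged genes, against 21.1% of the calls of DESeq2, 9.6% with the replicate block and 4.76% of those of limma-voom. The simulated libraries were drawn independently, with no shift of replicate 2 and no closeness of libraries 1 and 4. These rates therefore need not hold for the real libraries.

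The members, the lists and the tests were chosen with earlier results of these data known. Named were the 10 members, Ythdf2 and, from each related list (other cadherins, catenins and linkers, maturation and cleavage), the genes past the adjusted threshold or else the 3 with the smallest p. The result for 1 gene of the maturation and cleavage list is not reported here. Marker lists were microglia, the oligodendrocyte lineage, vascular cells and fibroblasts, astrocytes and Bergmann glia, unipolar brush cells, Purkinje cells, GABAergic interneurons, mature GCs and GC progenitors. Ctnnb1, Furin, Adam10, Gad1, Eomes, Zic1 and other marker genes are named outside this rule. Sequences were read with Python 3.11.15 and Biopython 1.88, and plots were drawn with matplotlib 3.10.9.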

Additional observations from a re-analysis of the deposited data

How the results depend on the processing

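The direction of the log2 fold change was kept in 138 of 139 values of the 10 members over 14 alternatives. The exception was Cdh15, at -0.21 without the shYthdf2 library of replicate 2. Without the shCtrl library of replicate 2 Cdh15 kept its direction, at 1.55. Past the adjusted threshold, edgeR called 0 members and 104 genes in all. DESeq2 called 3 members, 1321 genes and 2 genes of the related lists (0 in edgeR). Without a filter except a count above 0 there were 2 members and 639 genes, and limma-voom called 24 genes. The replicate block, which treats same-numbered libraries as pairs, called 2 members and 232 genes and changed no other call of the members or the related lists, and of the marker lists it changed that of Gad1. The term for replicate 2 called 6 members, 3799 genes and 7 genes of the related lists. With each library left out in turn, 0 to 6 members passed (6 without replicate 2 of shCtrl), 4 to 10 had an unadjusted p under 0.05, 0 to 3239 genes passed (3239 and 829 with the shCtrl and the shYthdf2 library of replicate 2 left out, 0 with each of the others), and 0 to 6 genes of the related lists passed. With at least 10 counts in every library, Cdh9 could not be tested. With the longest transcript as the length, 6 of the 10 members kept their rank in the shCtrl libraries. The cause of these changes was not tested.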

Other observations

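Outside the cadherins, the marker with the largest difference was Eomes (ENSMUSG00000032446), a transcription factor of unipolar brush cells, chosen here after its values were seen. Libraries 1, 2 and 4 held 359, 640.2 and 325 normalized counts of it after KD and 1747, 1172 and 1696 in controls, without overlap. The log2 fold change of Eomes was -1.80 ± 0.29 (SE), with adjusted p = 0.0502 by edgeR and 0.0571 with the replicate block. It passed the threshold with the term for replicate 2 (adjusted p = 0.0139), without replicate 2 of shYthdf2 (0.0235) or of shCtrl (0.00753), and with DESeq2 (1.70e-07), and the highest adjusted p over the 14 alternatives was 0.286. Of the other markers of these cells, Calb2 stood at 0.61 (adjusted p = 0.272) and Lmx1a at -0.50 (adjusted p = 0.579) by edgeR.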
